A study of Mus musculus with 41 samples.

Results

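Toll-like receptors are the membrane sensors with which cells recognise molecules of microbes and of damaged tissue, and Cd14 is the accessory protein that hands lipopolysaccharide to one of them. The transcripts examined here were Tlr1 to Tlr9 and Cd14, found as every spot of the mRNA microarrays whose gene name was one of those 10 symbols. They made up 12 probes and 30 spots, of 27962 gene names, 41174 probes and 43379 spots on each array. Lung and liver came from female C57BL/6 mice (C57BL/6BomTac in the study's methods) that inhaled nanoTiO2, a surface-coated rutile titanium dioxide pigment (UV-Titan), at 40 mg/m3 for 1 h a day on 11 days in a row, or filtered air. All were killed 5 days after the last exposure, and the age label gave a stage equivalent to early gestation, the mice being time-mated but not pregnant. Part of the lung was profiled for 7 exposed and 6 control mice and part of the liver for 7 exposed and 8 control mice. By the mouse numbers in the labels, 12 mice, 6 of each group, gave both tissues. Each array set a mouse's RNA (Cy5) against one universal mouse reference RNA (Cy3), with the same dyes throughout, so levels are given as log2 of the sample over that reference. Lungs and livers were scanned with different software versions in separate runs, so tissue and run cannot be told apart, and exposed mice lay at positions 1 and 2 of each slide and controls at positions 3 and 4, so position and exposure cannot be told apart either.

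Toll-like receptors work as pairs of chains, each with a leucine-rich ectodomain that meets the ligand and an intracellular TIR domain that recruits the adaptors Myd88 or Ticam1. Signals then pass through Irak kinases to NF-kappaB and interferon regulatory factors, which turn on cytokine genes together with inhibitors of the same route. Tlr1, Tlr2 and Tlr6 recognise lipopeptides at the cell surface, Tlr4 recognises lipopolysaccharide with Ly96 and Cd14, and Tlr5 recognises flagellin. Tlr3, Tlr7, Tlr8 and Tlr9 sit in endosomes and recognise nucleic acids. In lung and liver the resident macrophages are prominent carriers of several of these proteins, and endothelial and epithelial cells carry others.

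Which stretch of a transcript a probe reads decides what its value means, and pieces are shown for the receptors on which the results turn and for the symbols with 2 probes. Probes are 60 bases long and placed by the scanner files on mouse build mm7, and bases 31 to 60 are given, 5′ to 3′, except for the second Tlr3 probe, of which bases 16 to 45 are given. Capitals mark the letters AATAAA, a common polyadenylation signal, searched on the strand of the probe.
Tlr1, chr5:64279687-64279746, minus strand: agcatccattaatgttaagctggttaacca
Tlr6, chr5:64307937-64307996, minus strand: atgtgaaaacttgaaacttgggtttctaac
Tlr2, chr3:83941473-83941532, minus strand: gggtaaatctgagaactgcAATAAAgtcct
Tlr4, first probe, chr4:66276388-66276447, plus strand: tcagaaaagtatggaggtttcttggtaaac
Tlr4, second probe, chr4:66363220-66363279, plus strand: aagacatttctaagatcttaggattgctaa
Tlr3, first probe, chr8:44182210-44182269, minus strand: ttacccattaattcttgaggtgtatcacag
Tlr3, second probe, chr8:44181930-44181989, minus strand: agacgtttatagAATAAAagataattgctt
Tlr9, chr9:105956096-105956155, plus strand: tctgtcttactacaccgctatttggcaagt

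AATAAA stood in 2 of the 11 receptor probes and in 4.78% of all 41174 probes. Tlr1 and Tlr6, neighbouring genes of one strand, had probes 28.25 kb apart, and Tlr7 and Tlr8, neighbours on the X chromosome (chrX:162079619-162079678 and chrX:162017145-162017204, minus strand), had probes 62.474 kb apart. The Tlr5 probe lay at chr1:182962847-182962906 on the plus strand. Among the 55 pairs of receptor probes the longest run of bases that 2 probes shared was 8. The second probe named Tlr4 lay 86.832 kb beyond the first, further than the 19.031 kb that RefSeq (GRCm38.p6) gives the whole Tlr4 gene, and it was not well above background on any of the 28 arrays. Where a symbol had 2 probes the brighter one stands for it below.

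Between 55.1% and 70.5% of spots per array were well above background in the mouse channel, a limit on the precision of dim members. The tissues carried their own markers. In control lung and control liver, mean levels were 4.99 and 0.01 for Sftpc (surfactant protein C) and 0.16 and 5.62 for Apoa1 (apolipoprotein A-I of hepatocytes). Scgb1a1, the club cell secretory protein, stood at 6.78 and 0.30, and Alb (albumin) at 1.92 and 4.59. No member spot was saturated. Tlr8, the endosomal receptor of single-stranded RNA neighbouring Tlr7, was not well above background on any array, so no fold or test of it is given. Counts, medians and means over all members still include it.

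Cd14 was the member with the largest difference in the exposed lung, 1.46-fold higher than in control lung, while the receptor with which it works, Tlr4, differed by less than its spread. Tlr1 was higher in exposed lung by a smaller margin, and no other member had an unadjusted p under 0.05. In limma, none of the 10 members passed an adjusted p of 0.05, as did 0.202% of the 41155 probes tested (0.180% higher and 0.0219% lower). At an unadjusted p under 0.05 there were 2 members, beside 7.13% of all probes. The median lung difference over all 10 members, with the undetected Tlr8 among the higher ones, was 0.01 on the log2 scale, with 6 higher and 4 lower.

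Cd14 is anchored to the surface of monocytes and macrophages and also circulates in soluble form. Its log2 ratio in the control lungs was -1.59, -1.55, -1.28, -1.15 and -1.05, and the spot of the remaining control, mouse 26, was marked by the scanner software for its Cy3 background and left out. In the 7 exposed lungs the lowest was -1.06, the median -0.77 and the highest -0.58. Thus 6 of the 7 exposed lungs lay above every control and the remaining one, mouse 19, lay just below the highest control, mouse 32. Means were -0.78 ± 0.16 (SD, n = 7) and -1.32 ± 0.24 (SD, n = 5), a log2 difference of 0.54 (SE 0.103, 95% interval 0.32 to 0.76). Its adjusted p in limma was 0.0557, the 90th smallest p of the array, and an exact two-sided permutation test over 792 splits gave p = 0.00253.

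Whether Cd14 fell inside or outside the threshold turned on settings that left its size almost unmoved. With the marked spot kept and no background correction, an alternative chosen after the data were seen, mouse 26 had a level of -1.25 and the log2 difference was 0.53 with an adjusted p in limma of 0.0387. All 7 exposed lungs then lay above all 6 controls, the closest pair differing only in the fourth decimal. The values within slides 1, 2 and 3, each holding exposed and control lungs, were 0.47, 0.80 and 0.34, and slide 4 held no control. With slide as a random block the difference was 0.53 and the adjusted p 0.0376, and with slide as a fixed block they were 0.51 and 0.0843. Over all 13 arrays left out in turn the difference ran from 0.48 to 0.61, and the limma adjusted p was under 0.05 in only 2 fits. Those were the fits without control mouse 32 (0.0285) and without exposed mouse 19 (0.0297). In the others it was higher, up to 0.153 without control mouse 29. The fit without control mouse 26, whose spot was already left out, removed no Cd14 value and kept the difference of 0.54. The Cy3 channel, the same reference RNA on every array, differed at the Cd14 spot by -0.06 (SE 0.0315, limma unadjusted p = 0.059, adjusted p = 0.964). In Cy5 the difference was 0.48 (limma adjusted p = 0.0652). In whole tissue, more cells carrying a transcript and more transcript per cell cannot be told apart.

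**Figure D1:**
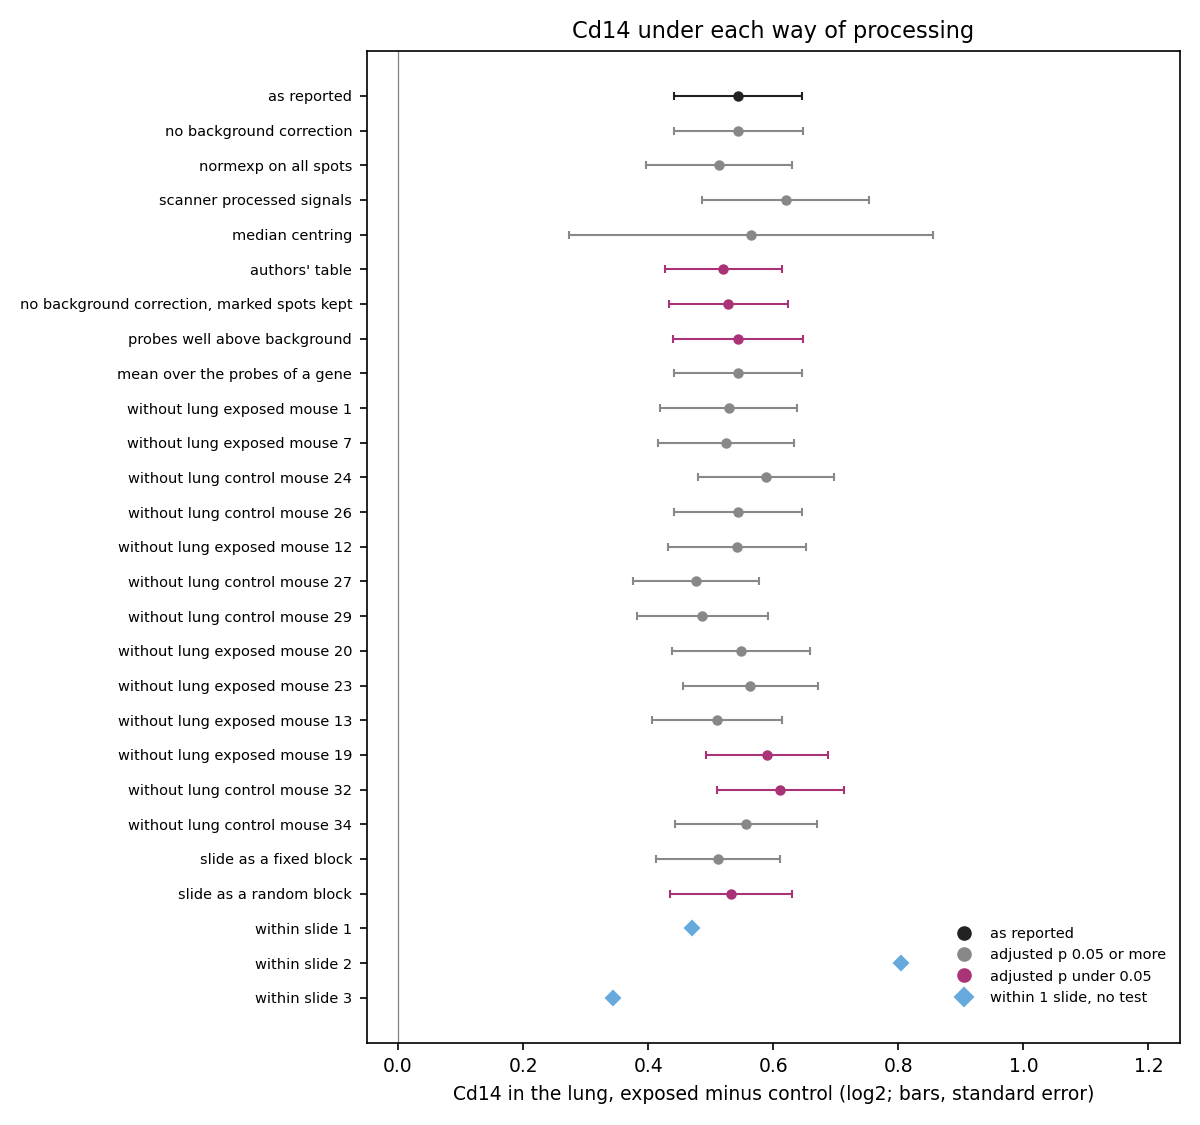
Log2 difference of Cd14 between exposed and control lung (horizontal axis) under each way of processing or with 1 mouse left out, with bars for the standard error and purple points where the adjusted p was under 0.05. Every fitted difference lies between 0.48 and 0.62 and that of median centring has the widest bar, while the diamonds, untested values within slides 1 to 3, spread from 0.34 to 0.80.

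Tlr4 itself did not follow Cd14. Its level in control lung ran from -0.73 through a median of -0.69 to -0.50, and in exposed lung from -0.72 through -0.67 to -0.61, so the exposed values lay wholly within the control range. The log2 difference was -0.02 (95% interval -0.11 to 0.07, limma adjusted p = 0.943). This interval is narrow among the members and lies below the interval of Cd14.

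Among the surface receptors of lipopeptides, Tlr1 ran from 0.20 through 0.42 to 0.66 in control lung and from 0.45 through 0.60 to 0.84 in exposed lung. All 7 exposed lungs lay above the control mean and 3 above the highest control, with the remaining values mixed. The log2 difference was 0.18 (SE 0.0785, 95% interval 0.01 to 0.34), with a limma adjusted p of 0.693 and an exact permutation p of 0.0594, and it was -0.0108 with normexp on all spots. Tlr2, the chain that pairs with either Tlr1 or Tlr6, ran from 0.30 through 0.40 to 0.53 in controls and from 0.33 through 0.51 to 0.82 in exposed lungs. Of the exposed lungs 3 exceeded every control and 3 lay below the control mean, giving 0.10 (95% interval -0.05 to 0.26, limma adjusted p = 0.801). The difference was 0.0509 without exposed mouse 20, 0.029 with slide as a fixed block and 0.0162 with normexp on all spots. Tlr6 ran from -0.73 through -0.61 to -0.50 in controls and from -0.78 through -0.63 to -0.54 after exposure. Its groups overlapped almost entirely, at -0.01 (95% interval -0.11 to 0.09, limma adjusted p = 0.981).

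Tlr5, the flagellin receptor, had control lungs between 0.60 and 0.94 with a median of 0.81, and exposed lungs between 0.52 and 0.83 with a median of 0.71. Only 1 of the 7 exposed lungs lay above the control mean, and the difference was -0.09 (95% interval -0.22 to 0.04, limma adjusted p = 0.798). The endosomal receptors overlapped throughout. Tlr3, which recognises double-stranded RNA, had medians of 0.91 in control and 1.00 in exposed lung with a difference of 0.05 (limma adjusted p = 0.907), and its second probe had equal means of 0.56. Tlr7, which recognises single-stranded RNA, had medians of 0.82 and 0.76 with a difference of -0.03 (limma adjusted p = 0.96). Tlr9, which recognises unmethylated CpG DNA, had medians of 0.28 and 0.35 with a difference of 0.01 (95% interval -0.11 to 0.13, limma adjusted p = 0.979). Each of the intervals of Tlr3, Tlr4, Tlr5, Tlr6, Tlr7 and Tlr9 in lung lay below the lower end of that of Cd14.

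**Figure D2:**
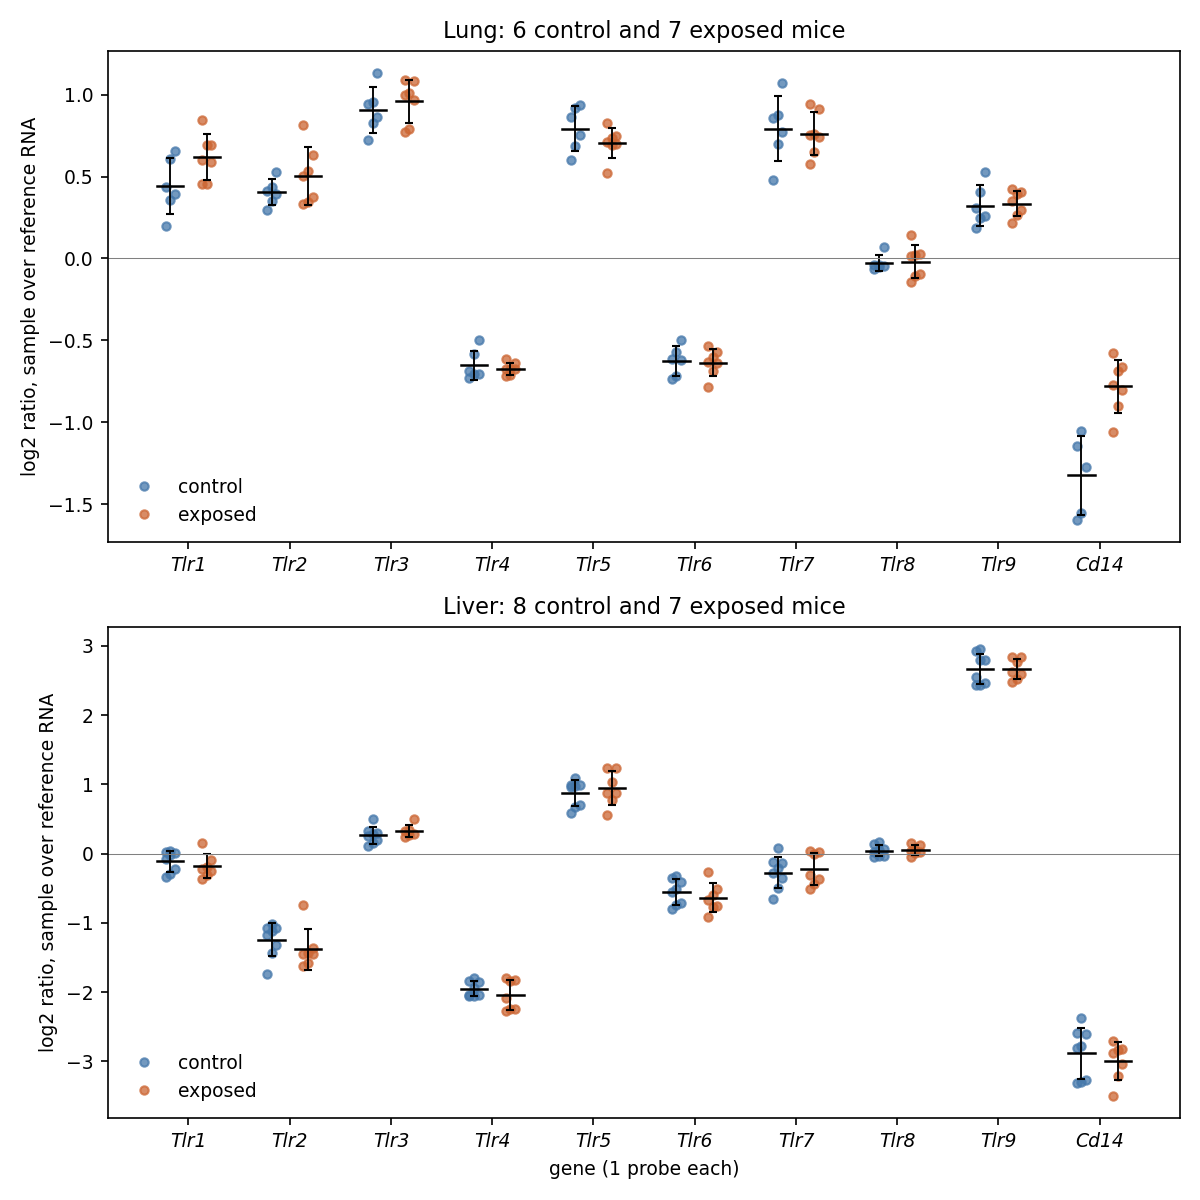
Log2 ratio of sample over reference RNA (vertical axis, with a different scale in each panel) for each gene, 1 point per mouse, with lines and bars for the mean and SD of control and exposed mice in lung (top) and liver (bottom). The exposed lungs stand apart from the controls most for Cd14, Tlr9 is near 0.3 in lung and above 2.4 in every liver, and Tlr8 is not well above background on any array.

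The genes whose lung values followed those of Cd14 most closely were found by the root mean square distance in log2 units over the 12 lung arrays, each gene centred on its control mean. They were 4930588N13Rik at 0.131, Itih4 at 0.169, Lemd1 at 0.177 and Ly6i at 0.18, where Cd14 itself lay 0.453 from a flat line. Of these, Itih4 (a plasma protease inhibitor chain), Lemd1 and Ly6i (a Ly6 family surface protein) passed the lung test, with log2 differences of 0.54, 0.58 and 0.44 and limma adjusted p of 0.00276, 6.04e-05 and 0.00804. Nearness was measured over the same exposed and control lungs, so a gene near Cd14 must have a like lung difference. Their passing is therefore not separate support for Cd14. For Tlr1 the closest over 13 arrays were A430107D22Rik (0.0869), Dapp1 (0.0993), Dennd1c (0.1), Dock10 (0.102) and Lpxn (0.107), where Tlr1 itself lay 0.192 from a flat line. None of those 5 passed the test.

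In liver the members gave no such difference. None of the 10 passed in limma, as did 0% of the 41143 probes tested, and none had an unadjusted p under 0.05, beside 2.53% of all probes. Cd14 ran from -3.32 through -2.79 to -2.38 in control liver and from -3.49 through -2.88 to -2.70 in exposed liver. The groups overlapped nearly throughout, at -0.12 (SE 0.152, 95% interval -0.44 to 0.20, exact permutation p = 0.496). Within the 4 slides the liver difference of Cd14 was 0.08, -0.34, -0.06 and -0.26.

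Tlr2 varied most among the receptors of exposed liver. Control livers ran from -1.73 through -1.14 to -1.01 and exposed livers from -1.62 through -1.45 to -0.74, a difference of -0.14 (95% interval -0.40 to 0.13). The difference was -0.24 without exposed mouse 13 and -0.21 without control mouse 45, and -0.39 with normexp on all spots. The highest exposed value belonged to mouse 13, whose liver was also the highest of its group for Tlr1, Tlr4, Tlr6 and Cd14. Its mean over the members was -0.09, where the other exposed livers lay between -0.47 and -0.32, and it was the highest of its group for 7 of the 17 other gene lists. Among these were the adaptors (0.56, the others up to 0.46) and the lung epithelial markers (0.28, the others -0.03 to 0.14), while the macrophage markers stood at 1.42 with the others between 0.89 and 1.45. Of the 9 lung epithelial markers only 2 were well above background on all liver arrays, and 2 were so on none, so that mean lies partly near background. The part of that liver's makeup in these values was not tested. The differences of the other measured members were -0.07 for Tlr1, 0.06 for Tlr3, -0.09 for Tlr4, 0.07 for Tlr5, -0.09 for Tlr6, 0.05 for Tlr7 and -0.0014 for Tlr9.

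Whether the lung effect of a member differed from its liver effect was tested directly, as the difference between both effects. No member passed in limma, as did 0.141% of 41125 probes, and 2 had an unadjusted p under 0.05, beside 4.30% of all probes. For Cd14 the lung effect exceeded the liver effect by 0.66 on the log2 scale (SE 0.204, limma adjusted p = 0.585), and for Tlr1 by 0.25 (adjusted p = 1.0). With the mouse as a replicate block, over the 12 mice with both tissues, the values were 0.68 for Cd14 (limma adjusted p = 0.644) and 0.34 for Tlr1 (0.602). An effect in lung that exceeds that in liver for Cd14 therefore did not pass across the array, and the liver interval given above is the wider of the 2 tissues.

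The tissues themselves separated the members much more sharply. Between control lung and control liver 7 of the 10 members passed in limma, 6 higher in lung and 1 higher in liver, as did 57.8% of the 41149 probes tested (29.3% higher and 28.5% lower in lung). Most of the array differed in this way, and tissue and array run cannot be told apart, so the share among members is not read as a result. The members' values below are levels on these arrays and share that limit. The groups of control lungs and control livers did not overlap for any of those 7, nor for 41.3% of all probes.

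Tlr9 stood apart from the rest in direction. Its control lungs ran from 0.19 through 0.28 to 0.53 and its control livers from 2.43 through 2.67 to 2.96, a difference of -2.35 (SE 0.0933) or 5.08-fold higher in liver, with a limma adjusted p of 5.77e-13. Every liver exceeded every lung, in the exposed mice too, whose livers lay between 2.48 and 2.84 and lungs between 0.21 and 0.42. Within each of the 12 mice the lung was lower, by -2.67 to -2.03 with a median of -2.45. The uncorrected Cy5 intensity of the probe was 324 to 575 in control lung and 5364 to 8896 in control liver. The Cy3 intensity of the reference RNA at that spot was 284 to 349 and 663 to 1272 on the same arrays, so both channels were brighter in the liver run and Cy5 by more.

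The genes on either side of Tlr9 in RefSeq (GRCm38.p6) did not share its pattern. Twf2, an actin-binding protein whose gene lies 7211 bases away, was higher in control lung by 2.11 (limma adjusted p = 2.04e-13), at 0.50 against -1.61. Alas1, the first enzyme of haem synthesis, lies 6579 bases away on the other side and was at 2.86 in lung and 3.14 in liver, a difference of -0.28 (limma adjusted p = 0.494).

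Tlr4 and Cd14 were both higher in lung. Tlr4 had a highest control liver of -1.80 and a lowest control lung of -0.73, a difference of 1.30 (SE 0.0562, 2.46-fold, limma adjusted p = 1.8e-12). Its control livers were dim, with an uncorrected Cy5 intensity of 108.1 to 134.25, where the undetected Tlr8 probe had 83.5 to 101. The size of the Tlr4 difference ran from 0.66 to 2.29 under the alternative settings. The 0.66 came from averaging with the second probe, not well above background on any array, while normexp on all spots gave 0.84. Cd14 had a highest control liver of -2.38 and a lowest control lung of -1.59, a difference of 1.56 (SE 0.163, 2.94-fold, limma adjusted p = 4.12e-07). Within the mice with both tissues the lung exceeded the liver in 12 of 12 mice for Tlr4, by up to 1.66, and in 11 of 11 for Cd14, by 0.82 to 2.53. For Cd14 the within-mouse median was 2.18 in the 6 exposed mice and 1.72 in the 5 controls, with the ranges 1.98 to 2.53 and 0.82 to 2.13 overlapping.

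Of the lipopeptide receptors, Tlr2 differed most between tissues, with control livers up to -1.01 and control lungs from 0.30, a difference of 1.64 (SE 0.0952, 3.13-fold, limma adjusted p = 9.3e-11). Tlr1 had livers up to 0.04 and lungs from 0.20, a smaller separation of 0.55 (1.46-fold, limma adjusted p = 1.26e-05). Its control livers were also dim, with an uncorrected Cy5 intensity of 101 to 136. Tlr6 overlapped between the tissues at -0.08 (95% interval -0.24 to 0.09, limma adjusted p = 0.43), with 5 of 12 mice higher in lung and 7 higher in liver. The chains of one receptor pair thus differed between tissues to unequal degrees. Tlr5 overlapped too, at -0.08 (95% interval -0.26 to 0.10, limma adjusted p = 0.454), although within the mice it was lower in lung in 11 of 12.

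Among the endosomal receptors other than Tlr9, Tlr7 was higher in lung by 1.07 (SE 0.106, 2.09-fold, limma adjusted p = 1.23e-07), its livers reaching 0.08 and its lungs starting at 0.48. Its control livers had an uncorrected Cy5 intensity of 103.5 to 151 and were well above background on 7 of 8 arrays. Tlr3 was higher in lung by 0.64 (1.56-fold, limma adjusted p = 2.43e-07) and, by the second probe, by 0.35 (1.27-fold, limma adjusted p = 3.78e-05). In liver the first Tlr3 probe was well above background on 6 of 8 control arrays and the second on 2 of 8, so the liver side of these differences lies near the limit of detection. The replicate block, over the 6 control mice with both tissues, left the same number of members past the test (7) and gave 1.54 for Cd14 and -2.42 for Tlr9.

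**Figure D3:**
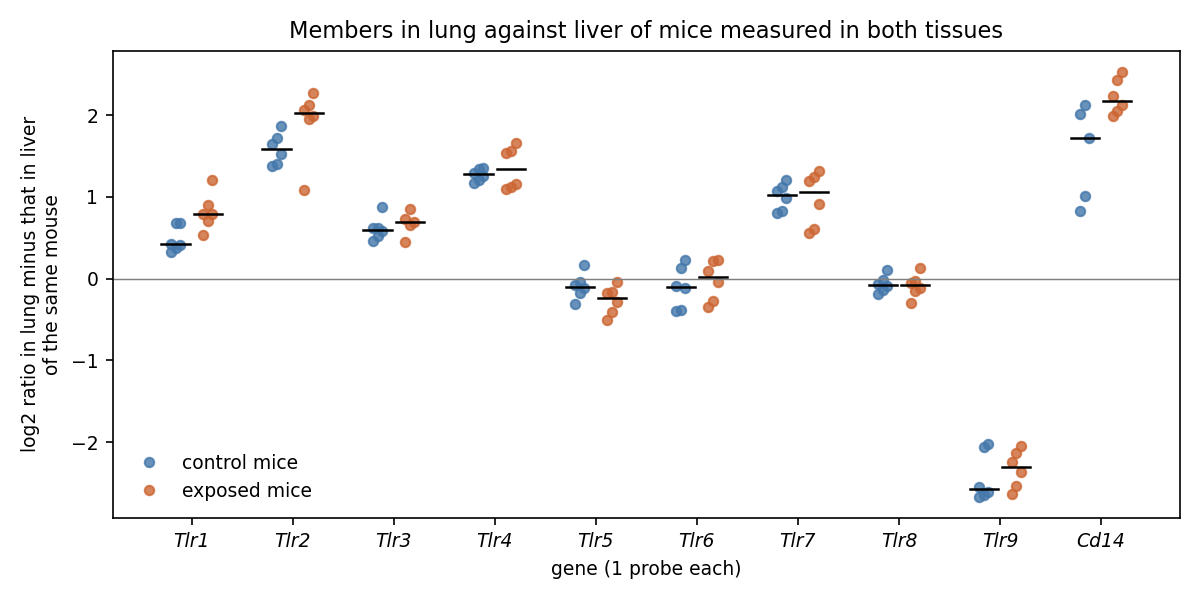
Lung minus liver log2 ratio within each mouse (vertical axis) for each gene, 1 point per mouse measured in both tissues, coloured by exposure, with lines at the group medians. Tlr9 lies below 0 in all 12 mice, between -2.67 and -2.03, while Tlr1, Tlr2, Tlr4 and Tlr7 lie above 0 in all 12, and Tlr8 was not well above background in either tissue.

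The rest of the pathway was read from lists of accessory proteins, adaptors, kinases and ubiquitin ligases, transcription factors, inhibitors and target genes, with 73 genes on the array. In exposed lung 1 rose and none fell in limma, beside the 0.202% of all probes given above, and at an unadjusted p under 0.05 13 were higher and 2 lower, beside 7.13% of all probes, with a median of 0.05. The gene that rose was Tnfaip3 (A20), a ubiquitin-editing enzyme that dampens NF-kappaB signalling. Exposed lungs averaged 0.22 ± 0.16 (SD, n = 7) against -0.18 ± 0.11 (SD, n = 6) for controls, a difference of 0.40 (SE 0.0713, 1.32-fold, adjusted p = 0.0336), and all 7 exposed lungs lay above all controls. With normexp on all spots or with median centring, 0 genes passed in lung over all the lists named here and below. In liver none of the 73 passed, and none were higher and 5 lower at an unadjusted p under 0.05, beside 2.53% of all probes, with a median of -0.03.

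Among the 9 accessory proteins none passed. Lbp, which loads lipopolysaccharide onto Cd14, had 5 of 7 exposed lungs above every control and a difference of 0.22 (limma adjusted p = 0.268), and Unc93b1, which carries the endosomal receptors to their compartment, differed by 0.08. Cd36, a scavenger receptor that aids Tlr2, was the lowest at -0.12 (limma adjusted p = 0.56). None of the 4 adaptors passed, with Myd88 at 0.04, Ticam2 at 0.07 without being well above background in lung, and Tirap at -0.07. None of the 17 kinases and ligases passed either, with Irak2 at 0.20 (limma adjusted p = 0.7), Tbk1 at 0.12 and Peli1 at -0.11.

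Of the 11 transcription factors none passed, with Relb at 0.44 over 6 exposed lungs (limma adjusted p = 0.295), Irf5 at 0.24 (0.275) and Fos at -0.27 (0.707). Of the 15 inhibitors Tnfaip3 rose. Nfkbiz, an inducible nuclear IkappaB protein, had 6 of 7 exposed lungs above every control at 0.39 (limma adjusted p = 0.104), and Dusp1, a phosphatase of MAP kinases, was at -0.35 (0.755). None of the 17 target genes passed, with Acod1 (named Irg1 on the array) at 0.32 (0.654), Il1rn, the interleukin-1 receptor antagonist, at 0.27 (0.184) and Il1b at -0.30 (0.834). At an unadjusted p under 0.05, 5 were higher and 1 lower, beside 7.13% of all probes. The least detected were Ifnb1, Il10, Nos2 and Il1a, well above background on 0, 3, 5 and 6 of the 13 lung arrays. The list held no chemokine or acute-phase gene, and the paper reports several of both raised in these lungs.

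Of 15 innate receptors outside the family, 2 rose in exposed lung, both scavenger receptors of macrophages. Marco went from 4.87 to 5.43, a difference of 0.57 (SE 0.0875, limma adjusted p = 0.00924), and Msr1 from -1.47 to -0.96, a difference of 0.52 (limma adjusted p = 0.02), each with all 7 exposed lungs above all controls. Clec4n, a C-type lectin, was at 0.54 (limma adjusted p = 0.0923) and Ifih1, a cytosolic RNA sensor, at -0.10 (0.712).

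**Figure D4:**
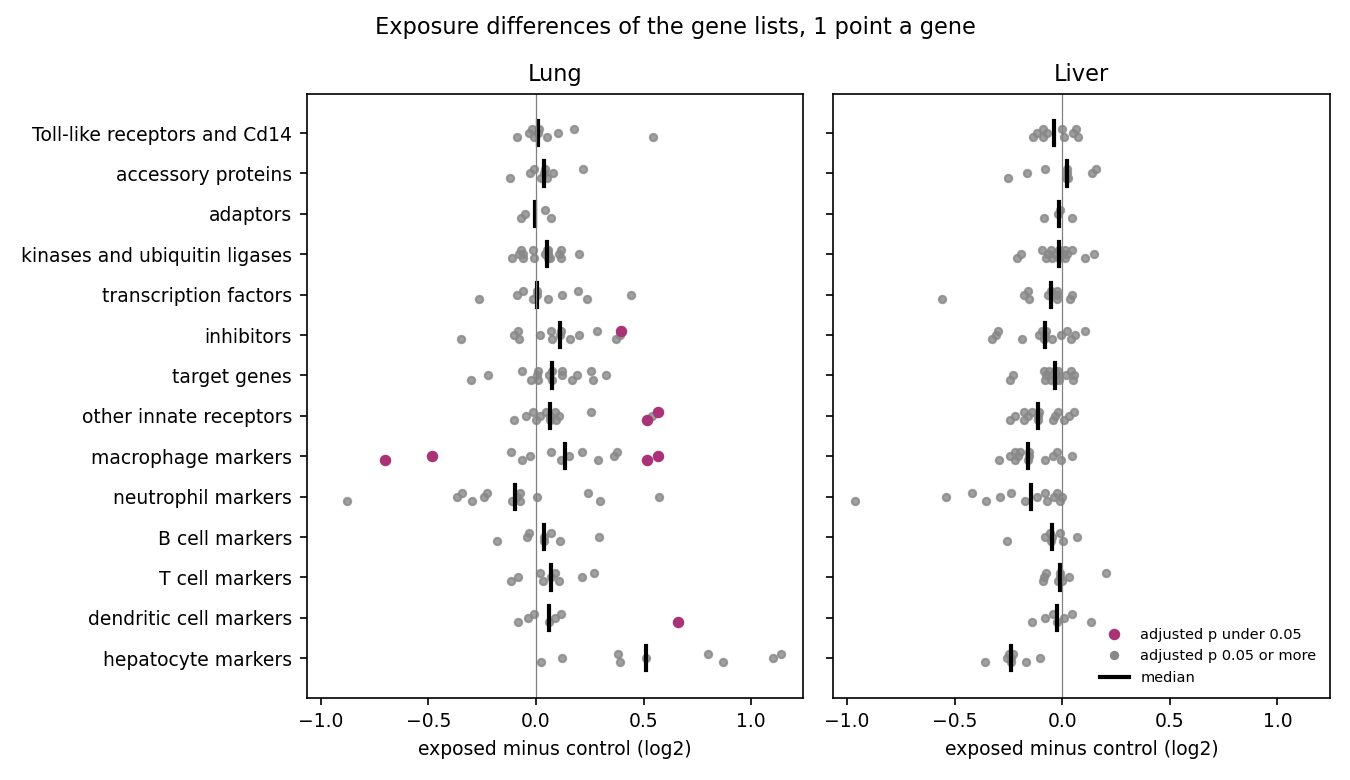
Exposed minus control log2 difference (horizontal axis) in lung and in liver for each gene of the pathway and cell marker lists, 1 point per gene (the Kupffer cell, epithelial, endothelial and heart lists are not plotted), with a black line at each list's median and larger purple points where the adjusted p was under 0.05. The purple points are all in lung: Tnfaip3 among the inhibitors, Marco and Msr1 among the other innate receptors and again among the macrophage markers with Siglecf and Ear1 to the left of 0, and Itgae among the dendritic cell markers.

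Control lung and control liver also differed in this pathway, with 31 of the 73 genes higher and 23 lower in lung, beside the 29.3% and 28.5% of all probes given above. The partners of Tlr4 and Cd14 did not follow them. Lbp was lower in lung by -0.94 (limma adjusted p = 2.69e-09) and Ly96 by -0.88 (2.55e-05), whereas Cd36 was higher by 2.62 (6.71e-11). Unc93b1, on which Tlr9 depends, was at -0.06 (limma adjusted p = 0.371). Myd88 was higher in lung by 0.36 (1.21e-06) and Tirap, which bridges Tlr2 and Tlr4 to Myd88, was lower by -1.01 (1.06e-10). The inhibitor Tnfaip3 was higher in lung by 1.50 and the NF-kappaB subunit Relb by 1.71.

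Markers of cells that carry these transcripts were read in the same arrays. Of 14 macrophage markers in lung, Marco and Msr1 rose, and Siglecf (-0.70, limma adjusted p = 0.0106) and Ear1 (-0.48, limma adjusted p = 0.000603) fell, with all 7 exposed lungs below all controls for both. The mean over those 14 markers was 2.25 to 2.57 in control lung and 2.20 to 2.52 in exposed lung, overlapping. The means also overlapped for 14 neutrophil markers (1.09 to 1.65 and 0.97 to 1.74, none passing) and for 8 B cell markers (0.47 to 0.99 and 0.54 to 1.21, none passing). These means of tissue RNA are not cell counts. In lavage fluid of these mice the paper reports a significantly higher percentage of neutrophils, and fewer macrophages, after exposure. None of 9 T cell markers or of 6 endothelial markers passed. Itgae, an integrin of mucosal lymphocytes and dendritic cells, rose by 0.66 (limma adjusted p = 0.0032) as the 1 of 7 dendritic cell markers that passed, and the ciliated-cell factor Foxj1 by 0.30 (0.037) as the 1 of 8 epithelial markers. Only 2 of those 8 epithelial markers were higher in exposed lung, and their median difference was -0.10. Of 6 Kupffer cell markers only Marco passed.

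Genes listed as markers of hepatocytes and of heart muscle were also read in the lungs. The mean over 9 hepatocyte markers was 0.25 to 0.87 in control and 0.49 to 2.23 in exposed lung, with a median difference of 0.51, all 9 higher, 4 at an unadjusted p under 0.05 and none passing in limma. Of these, Ttr was well above background on 1, Fga on 2 and Cps1 on 3 of the 13 lung arrays. The mean over 6 heart muscle markers was 1.45 to 3.79 in control and 2.13 to 3.67 in exposed lung, with a median difference of 0.35 and none passing. The part of these in the Cd14 difference was not tested.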

How the data were processed

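The authors hybridised lung and liver RNA (Cy5) with universal mouse reference RNA (Cy3) on 2-colour Agilent 4x44K arrays. The deposited scanner files hold spot intensity, and the deposited value table holds the authors' log2 ratios, used as an alternative (r with loess values without background correction 0.993 or more). Scanner software was version 9.5.3.1 for lung and 10.1.1.1 for liver.

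Median intensities were taken from the deposited files. Spots with any of 8 outlier flags were removed (1066 to 2048 per array) before normexp with offset 50, since fitting on all spots moved the background estimate on some arrays. Loess within arrays followed, control spots were left out and spots of a probe averaged. Tests used limma 3.58.1 in R 4.3.3 with Benjamini-Hochberg adjustment over all probes, and exact two-sided permutation for members. One probe, the brightest, stood for a gene. Named genes were all members, in each list those past an adjusted p of 0.05 and the 2 highest and 1 lowest lung differences, and the 5 nearest genes of Cd14 and Tlr1, of which 1 is not reported here. The members, lists and settings were chosen with earlier results of these data known, so no list is independent evidence. The fits were tested on simulated data, where 93% of 100 probes changed by 0.5 were recovered in lung over 31796 probes, with 5.91% of calls false. The simulation drew independent normal errors, without slide or position effects, for probes measured on all 13 lung arrays. Cd14, with 1 control missing, was not among them. These rates check the code and are not the power or error rate of the real arrays. The labels give the same mouse numbers in both tissues, and a tissue pair was taken as 1 animal on that ground alone. The correlation of same-mouse deviations was -0.08 to 0.21, over 0.1 in 4 of 12 pairs. In 4 of 12 pairs the lung correlated best with the liver of its own number. The microRNA labels give mice 12, 20 and 23 as controls where the mRNA labels give them as exposed, and this conflict was not resolved. Replicates are separate mice. No genome of mm7 was used, and the microRNA arrays were not analysed here. The number of arrays limits the precision.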

Additional observations from a re-analysis of the deposited data

Results flagged for a closer look

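In groups of 5 to 8 measured arrays, 3 of the 48 member probe groups held an array whose gap to its nearest neighbour was large against the range of the group, and chance gives about 1 in 20. For Tlr2 in exposed liver, mouse 13 was at -0.74 with the next at -1.37, a gap of 0.716 of the range. For Tlr5 in exposed lung, mouse 1 was at 0.52 with the next at 0.70, a gap of 0.568 of the range. For Tlr8 in control lung, where the probe was not well above background, mouse 24 stood above the others by a gap of 0.807 of the range.

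For a lung effect that differs from the liver effect, 19 probes were examined. They were the 12 member probes and those of the list genes that had already passed the lung test. Of these, 2 marker genes passed in limma, and both had entered through their lung difference in these same arrays, so their passing is not independent evidence. The effect on Siglecf, a lectin of alveolar macrophages and eosinophils, was lower in lung by -0.75 (SE 0.121, adjusted p = 0.00194), and that on Itgae was higher in lung by 0.70 (SE 0.12, adjusted p = 0.00424).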

How the results depend on the processing

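All 7 tissue calls held under 9 alternatives and with each of 14 arrays left out, although the scanner's processed signals moved Tlr1 to 1.15, Tlr3 to 1.11, Tlr4 to 2.29 and Tlr7 to 1.69, normexp on all spots moved Tlr4 to 0.84, and the mean over the probes of a gene moved it to 0.66. In lung, 1 member (Cd14) passed with the authors' table, with no background correction and marked spots kept, with dim probes filtered and with slide as a random block, and 0 or 1 with an array left out. For Cd14 the adjusted p under the alternatives ran from 0.0376 to 1.0, with 0.0434 by the authors' table, 0.6 by normexp on all spots and 0.189 by the processed signals.

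The number of probes called in lung was 83, against 14 with normexp on all spots, 4 with median centring and 133 with slide as a random block, and 64 to 81 with an array left out. For the lung minus liver effect it was 58, against 6 with normexp on all spots, 34 with processed signals and 12 with median centring, and 46 to 65 with an array left out. In the reference channel it was 3, against 1 with normexp on all spots and 2 to 3 with an array left out. Genes of the lists called in lung were 7, against 0 with normexp on all spots, 0 with median centring and 4 with the authors' table. The cause was not tested.

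Small differences changed sign. In lung these were, with no background correction, Tlr3 (-0.00324, and -0.00281 with marked spots kept), with normexp on all spots Tlr1 (-0.0108), Tlr3 (-0.22), Tlr4 (0.13), Tlr6 (0.16) and Tlr9 (-0.0906), with processed signals Tlr3 (-0.00764), with median centring Tlr4 (0.0613), Tlr6 (0.0443) and Tlr7 (0.0493), with the authors' table Tlr3 (-0.0179), with the mean over probes Tlr4 (0.00033) and with slide as a fixed block Tlr6 (0.0109). In liver they were, with no background correction, Tlr7 (-0.00694) and Tlr9 (0.00786), with marked spots kept Tlr7 (-0.00696) and Tlr9 (0.0169), with normexp on all spots Tlr7 (-0.0479) and Tlr9 (0.21), with processed signals Tlr3 (-0.0238), with median centring Tlr9 (0.18) and Cd14 (0.0293), with the authors' table Tlr9 (0.00506), and for Tlr9 0.0216 with slide as a fixed and 0.00931 as a random block. Between tissues they were Tlr5 with normexp on all spots (0.11) and median centring (0.00858).

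With an array left out, sign changes came in lung for Tlr4 (-0.0362 to 0.0100), Tlr6 (-0.0313 to 0.0162), Tlr7 (-0.0935 to 0.0245) and Tlr9 (-0.0144 to 0.054), and in liver for Tlr7 (-0.00435 to 0.0992) and Tlr9 (-0.0356 to 0.0396). The replicate block, which pairs tissues of a mouse, changed no member's call. Over all probes, tissue calls were 22404 against 23776, and lung minus liver calls 49 against 58.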
